A study of Mus musculus with 8 samples.

Results

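Transcript levels of 10 genes that govern the passage of cells from G1 into S phase were described in JunB cKO and wild type mouse skin, among 21441 gene symbols held by all 3 deposited tables. The set holds the CIP/KIP inhibitors Cdkn1a, Cdkn1b and Cdkn1c, the INK4 locus genes Cdkn2a and Cdkn2b, the D cyclins Ccnd1, Ccnd2 and Ccnd3, the tumour suppressor gene Trp53, and Sfn, which encodes 14-3-3 sigma. The set is a list of gene names, and each gene was read from the row whose gene name equals the symbol. Each symbol is represented by the locus with the largest summed FPKM, a level scaled to transcript length and library size.

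D cyclins bind the kinases CDK4 and CDK6 and start the phosphorylation of the retinoblastoma protein, which releases E2F factors and opens the way to DNA replication. INK4 proteins block these kinases directly, CIP/KIP proteins bind the assembled cyclin and kinase complexes, and p53 drives Cdkn1a and Sfn after DNA damage. In the epidermis the same circuit accompanies the exit of keratinocytes from the cell cycle as they leave the basal layer, and JunB, an AP-1 protein, is known in other cells as a repressor of Ccnd1 and an activator of Cdkn2a.

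All mice were C57BL/6. JunB cKO mice, labelled JunB -/-, lack JunB in cells that express Cre from the K14 promoter, that is in basal epidermal cells and their progeny, so that other skin cells keep the gene; wild type mice are labelled JunB +/+. Unperturbed samples received no treatment and came from mice of 60 days, plucked skin was taken at 58 days, 4 days after depilation, and wound biopsies were taken 30 days after wounding from mice whose age is not given in the sources used here. Each library was made from the pooled RNA of 3 samples. Unperturbed and hair plucking samples gave 1 library per genotype, and wounds gave 2 per genotype that the deposited table merges into 1 value. No spread between libraries can therefore be given and no test of genotype was possible. The intervals below are 95% counting intervals of the log2 ratio, computed from reads recovered from the FPKM values, and they cover counting error only.

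The read totals that scale the FPKM values were recovered from genes with 1 exon. They came to 16900000 for wild type and 4990000 for JunB cKO in the unperturbed pair, a ratio of 3.39, against 16300000 and 12900000 after hair plucking and 19800000 to 21700000 in wounds. In the unperturbed JunB cKO library only 13.8% of 1487 odorant, vomeronasal and taste receptor genes were listed at 0, with a median of 0.543 FPKM, whereas 95.1% were at 0 in wild type. The unperturbed libraries held 5253 to 5333 summed FPKM of 5 basal keratinocyte markers beside 12.5 to 13.7 of 6 fibroblast markers and 0.725 to 3.01 of 5 muscle markers, as the keratinocyte label would have it. The plucked pair carries the same tissue label but is titled a skin biopsy, and held 1856 to 5109 FPKM of the fibroblast markers. Junb itself was lower in JunB cKO in each table, at 268 against 31.4 FPKM in unperturbed samples, 40.8 against 11.7 after hair plucking and 33.4 against 15.4 in wounds.

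Cdkn1a (chr17:29090976-29100727, plus strand, in GENCODE M21 on GRCm38), which encodes p21, the inhibitor that p53 induces, was the member with the largest difference after hair plucking among those above 10 FPKM. Its level there was 15.3 FPKM in wild type versus 42.1 in JunB cKO, a log2 ratio of 1.45 (interval 1.19 to 1.71). In unperturbed samples it stood at 125 FPKM in wild type versus 171 in JunB cKO, a log2 ratio of 0.45 (interval 0.31 to 0.58). In wounds the levels were 21.9 and 26.6 FPKM and the log2 ratio 0.28 (interval 0.12 to 0.43). JunB cKO was thus higher in every table, and 4.67%, 8.76% and 23.1% of all loci with at least 10 FPKM were raised as much or more in unperturbed, plucked and wounded samples, respectively.

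Cdkn1b (chr6:134920401-134925513, plus strand), which encodes p27, lay on either side of wild type depending on the table. In unperturbed samples it was listed at 36.0 FPKM in wild type versus 25.1 in JunB cKO, a log2 ratio of -0.52 (interval -0.75 to -0.29). After hair plucking JunB cKO was the higher genotype, at 44.9 against 26.6 FPKM, and the log2 ratio was 0.75 (interval 0.61 to 0.90). In wounds JunB cKO was again the lower, at 42.5 against 52.4 FPKM, with a log2 ratio of -0.30 (interval -0.38 to -0.23). Of loci with at least 10 FPKM, 15.7% were lowered as much or more in unperturbed samples and 21.9% in wounds. After hair plucking 18.7% were raised as much or more. The ratio of the Cdkn1a level to the Cdkn1b level was nevertheless higher in JunB cKO in each table, at 6.80 against 3.48 in unperturbed samples, 0.937 against 0.576 after hair plucking and 0.624 against 0.418 in wounds.

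Cdkn1c (chr7:143458339-143461050, minus strand), which encodes p57, an inhibitor expressed from the maternal allele, was the scarcest CIP/KIP transcript. Its level was 0.815 FPKM in wild type versus 1.96 in JunB cKO in unperturbed samples, 3.01 and 3.38 after hair plucking, and 13.6 and 11.1 in wounds. The unperturbed log2 ratio of 1.17 (interval 0.22 to 2.22) rests on about 23.3 and 16.5 reads, and it was 0.73 once the median receptor gene level of each library was subtracted. In wounds the log2 ratio was -0.30 (interval -0.44 to -0.16), and after hair plucking the interval of -0.32 to 0.63 took in 0. Summed over the CIP/KIP genes, JunB cKO held 197.8 FPKM against 162.1 in unperturbed samples, 90.3 against 45.0 after hair plucking and 80.2 against 88.0 in wounds.

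**Figure D1:**
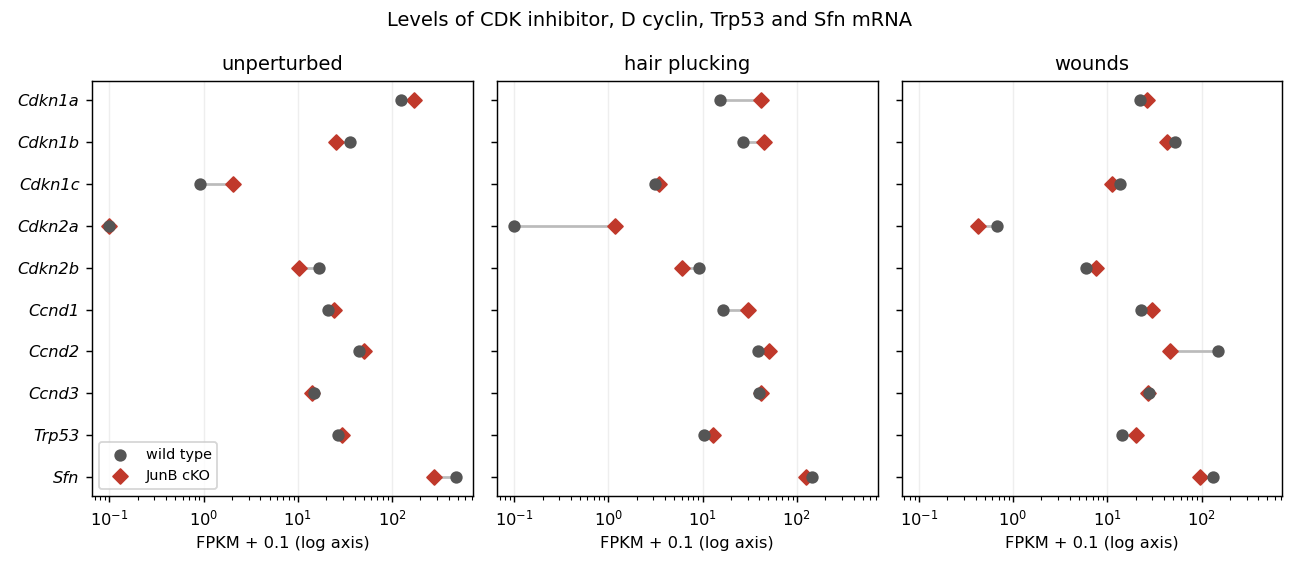
Level of each of the 10 genes in FPKM + 0.1 on a log axis, with 1 panel per table; grey circles are wild type, red diamonds are JunB cKO and each symbol is 1 value, so there are no error bars. The widest gaps are Cdkn1a after hair plucking (15.3 against 42.1 FPKM), Cdkn2a after hair plucking (0 against 1.07 FPKM) and Ccnd2 in wounds (149.9 against 46.7 FPKM).

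The INK4 genes Cdkn2a and Cdkn2b lie on chromosome 4, 11645 bp apart, on the minus strand. Cdkn2a (chr4:89274471-89294653), whose separate first exons give p16INK4a and the p53 regulator ARF, was at or near the limit of detection in all libraries. It was listed at 0 in both unperturbed libraries, where 3 reads would have been 0.272 FPKM in wild type versus 0.924 in JunB cKO. After hair plucking it was listed at 0 in wild type versus at 1.07 FPKM, about 9 reads, in JunB cKO, which is at least 3.8-fold higher when wild type is set to 3 reads. In wounds the levels were 0.571 FPKM in wild type versus 0.327 in JunB cKO, and the interval of the log2 ratio ran from -2.06 to 0.60. The neighbouring transcript Gm12606 also stood at 0 in wild type versus at 2.45 FPKM in JunB cKO after hair plucking, and at 0.395 and 0.965 FPKM in wounds.

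Cdkn2b (chr4:89306299-89311039), which encodes p15 and is known as a target of TGF-beta signalling, was the more abundant INK4 gene. In unperturbed samples it was listed at 16.9 FPKM in wild type versus 10.1 in JunB cKO, a log2 ratio of -0.73 (interval -1.16 to -0.34). After hair plucking it was 9.05 and 5.93 FPKM, a log2 ratio of -0.60 (interval -0.99 to -0.24). In wounds JunB cKO was the higher genotype, with 7.47 against 5.79 FPKM and a log2 ratio of 0.36 (interval 0.14 to 0.59). Of loci with at least 10 FPKM, 5.39% were lowered as much or more in unperturbed samples and 22.3% after hair plucking. In wounds 18.1% were raised as much or more. Cdkn2b itself lay below 10 FPKM in the plucked and wound samples. Cdkn2b has 1 transcript in GENCODE M21, of 1390 bp, from which its reads were approximated. The deposited locus, chr4:89306289-89311032, has slightly different ends, so the transcript model behind the FPKM values may differ.

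Since JunB binds AP-1 sites, the start regions of the members were searched for them in RefSeq sequences of GRCm38.p6, 250 bases before and 50 after each start. The table held 10 windows of 7 members. Ccnd1, Ccnd2 and Cdkn1c have no entry. The AP-1 motif TGANTCA was in 0 of the 10 windows and in 7.81% of 32851 windows of all genes. The cAMP response element TGACGTCA, a palindrome to which AP-1 proteins also bind, was in the window of Cdkn2b and in 1.79% of all windows. An E2F motif, TTTCCCGC or TTTGGCGC on either strand, was in the window of the ARF start of Cdkn2a and in 1.56% of all windows. GC boxes, GGGCGG on either strand, were in 7 of the 10 windows and in 35.7% of all windows, and none of these matches overlapped another motif. The bases before the starts of Cdkn1a, Cdkn2a and Cdkn2b are shown because these are the inhibitors with the widest gaps between genotypes after hair plucking or a match to CRE or E2F. They run 5′ to 3′ on the strand of the gene, without bases that GENCODE M21 counts as exon, and capitals mark the matches.
Cdkn1a, second start, chr17:29093519-29093768, plus strand: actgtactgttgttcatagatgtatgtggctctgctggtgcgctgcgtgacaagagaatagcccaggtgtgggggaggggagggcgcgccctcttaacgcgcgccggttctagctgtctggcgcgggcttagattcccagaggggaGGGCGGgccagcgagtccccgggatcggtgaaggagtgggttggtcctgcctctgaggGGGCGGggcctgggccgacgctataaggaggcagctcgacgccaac
Cdkn2a, p16INK4a start, chr4:89282193-89282442, minus strand: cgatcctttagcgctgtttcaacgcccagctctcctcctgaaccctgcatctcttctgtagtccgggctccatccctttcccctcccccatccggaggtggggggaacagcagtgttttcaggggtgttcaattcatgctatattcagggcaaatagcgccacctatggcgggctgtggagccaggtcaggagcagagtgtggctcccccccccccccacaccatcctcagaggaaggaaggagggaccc
Cdkn2a, ARF start, chr4:89294654-89294869, minus strand: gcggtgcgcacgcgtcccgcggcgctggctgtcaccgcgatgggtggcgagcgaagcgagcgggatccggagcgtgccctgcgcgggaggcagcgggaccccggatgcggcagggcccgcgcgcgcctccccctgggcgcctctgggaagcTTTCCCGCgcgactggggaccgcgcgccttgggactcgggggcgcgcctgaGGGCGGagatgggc
Cdkn2b, chr4:89311040-89311282, minus strand: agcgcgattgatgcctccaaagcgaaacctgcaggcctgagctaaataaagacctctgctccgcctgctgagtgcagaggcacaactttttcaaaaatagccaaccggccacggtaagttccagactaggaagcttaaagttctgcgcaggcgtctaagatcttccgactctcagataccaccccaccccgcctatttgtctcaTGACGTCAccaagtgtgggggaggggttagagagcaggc
The capitals are GC boxes that begin 104 and 46 bases before the second start of Cdkn1a, the E2F motif 99 bases and a GC box 48 bases before the ARF start, and the cAMP response element 46 bases before the start of Cdkn2b. A match is a run of letters only, and factor binding was not measured in these samples.

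**Figure D2:**
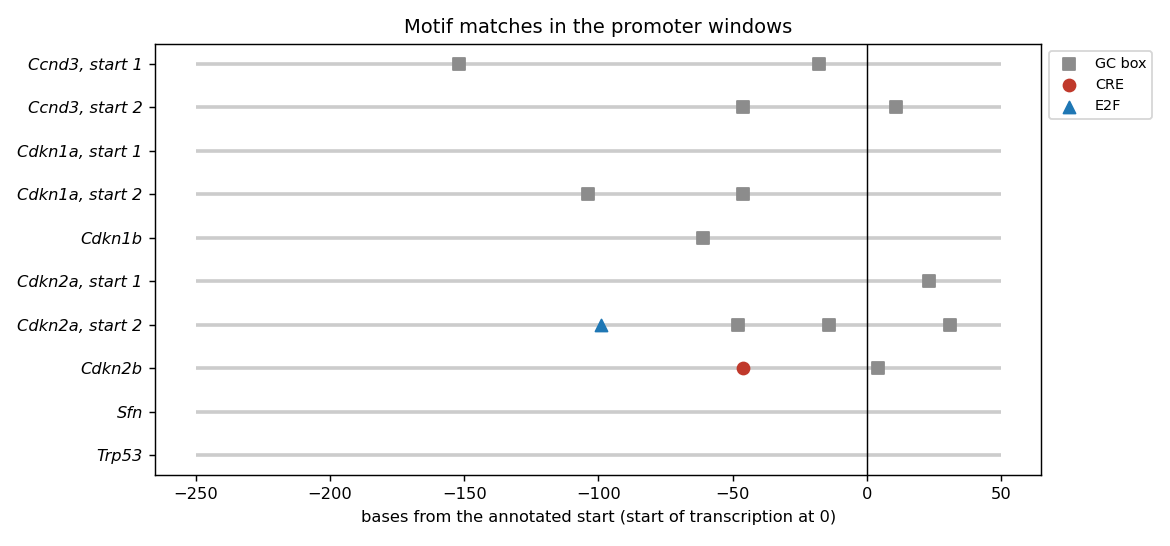
Position of motif matches in the 10 start windows of 7 members, in bases from the annotated start at 0; each grey line is 1 window, starts are numbered by coordinate (Cdkn2a start 1 is p16INK4a and start 2 is ARF), grey squares are GC boxes, the red circle is CRE and the blue triangle is E2F. The only CRE lies at -46 in Cdkn2b, the only E2F match at -99 in Cdkn2a, and no AP-1 motif was found to plot.

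Among the D cyclins, Ccnd1 (chr7:144929931-144939925, minus strand) was higher in JunB cKO in all 3 tables. Its level was 20.7 FPKM in wild type versus 24.2 in JunB cKO in unperturbed samples, a log2 ratio of 0.23 (interval 0.07 to 0.39). After hair plucking it was 16.4 and 30.4 FPKM, a log2 ratio of 0.89 (interval 0.77 to 1.01), and in wounds 22.8 and 29.9 FPKM, a log2 ratio of 0.39 (interval 0.33 to 0.46). None of these ratios reached 2-fold, and 9.15%, 15.7% and 16.7% of loci with at least 10 FPKM were raised as much or more in the respective tables. The overlapping locus of Oraov1 differed in the opposite direction after hair plucking, at 21.4 FPKM in wild type versus 14.8 in JunB cKO, and in the same direction in wounds, at 3.98 and 7.57 FPKM.

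Ccnd2 (chr6:127125162-127152193, minus strand) was the most abundant D cyclin in wild type wounds and showed the largest difference of all members there. It was listed at 149.9 FPKM in wild type versus 46.7 in JunB cKO, 3.21-fold lower, with a log2 ratio of -1.68 (interval -1.77 to -1.60), and 2.12% of loci with at least 10 FPKM were lowered as much or more. In unperturbed samples Ccnd2 was 44.8 FPKM in wild type versus 50.2 in JunB cKO, and the interval of -0.07 to 0.40 took in 0. After hair plucking it was 38.3 and 50.4 FPKM, a log2 ratio of 0.40 (interval 0.21 to 0.58). Under the symbol Ccnd2, wild type wounds thus stood apart from the other groups, which lay between 38.3 and 50.4 FPKM. Tables scaled separately, different tissue preparations and other symbols listed in the same locus, given below, limit that comparison.

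Some caution attaches to the Ccnd2 value. The gene has 8 annotated transcripts of 115 to 6330 bp whose FPKM values are summed, and its deposited locus spans 89446 bp in wounds against 27032 bp for the annotated gene. Gm43126, in the same locus, was listed at 10.6 FPKM in wild type versus 22.4 in JunB cKO wounds, and at 34 versus 0 FPKM after hair plucking. Whether the counting used the strand of the reads is not given in the sources used here. Markers of other structures also differed in wounds. All 5 hair follicle markers were lower in JunB cKO, with sums of 6179 FPKM in wild type versus 4027 in JunB cKO. All 4 melanocyte markers were lower (160 against 89.7 FPKM), and 4 of 5 sebaceous gland markers were higher (502 against 1116 FPKM). Scd1 held most of the sebaceous gland sum (390 against 1009 FPKM), and Fabp5 was lower (91.6 against 82.0 FPKM). Of 4 adipocyte markers 3 were higher (390 against 698 FPKM), as were all 4 endothelial markers (125 against 170 FPKM) and 5 of 6 fibroblast markers (10532 against 13412 FPKM), and none of these markers was at 0. In bulk samples fewer cells of a type and less RNA per cell cannot be told apart, and the part of these markers in the Ccnd2 difference was not tested.

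Ccnd3 (chr17:47505051-47599691, plus strand) was nearly level between genotypes in every table. It was listed at 14.9 FPKM in wild type versus 14 in JunB cKO in unperturbed samples, 39.6 and 41.5 after hair plucking and 27.5 and 27.1 in wounds. All 3 intervals took in 0, the widest from -0.57 to 0.37 in unperturbed samples and the narrowest from -0.16 to 0.12 in wounds. Centred on the median of all loci, the unperturbed log2 ratio of -0.09 became 0.09.

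The make-up of the D cyclin mRNA followed from these levels. In unperturbed samples Ccnd2 supplied 55.7% of the summed D cyclin FPKM in wild type versus 56.8% in JunB cKO. After hair plucking the share of Ccnd1 was 17.4% in wild type versus 24.9% in JunB cKO, and that of Ccnd3 was 42.0% and 33.9%. In wounds Ccnd2 made up 74.9% of the sum in wild type versus 45.0% in JunB cKO, while the sum itself was 200.2 and 103.7 FPKM. CIP/KIP inhibitor mRNA per unit of D cyclin mRNA was higher in JunB cKO in each table, at 2.24 against 2.02, 0.738 against 0.477 and 0.773 against 0.440. In wounds the CIP/KIP sum was itself lower in JunB cKO (80.2 against 88.0 FPKM). The higher ratio there therefore rests on the lower D cyclin sum, and so on the Ccnd2 value cautioned about above.

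**Figure D3:**
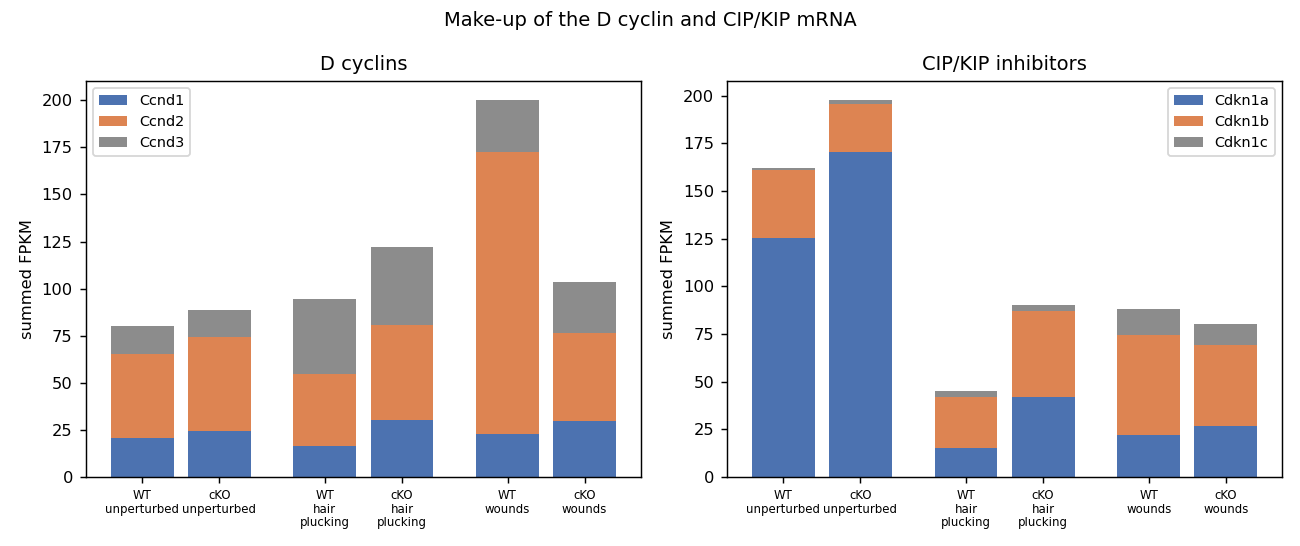
Stacked bars of the FPKM of Ccnd1, Ccnd2 and Ccnd3 (left) and of Cdkn1a, Cdkn1b and Cdkn1c (right) in wild type (WT) and JunB cKO (cKO) samples of the 3 tables, with axes from 0 and 1 value per bar segment. Ccnd2 fills 74.9% of the tall wild type wound bar, and Cdkn1a fills 77.3% and 86.3% of the unperturbed CIP/KIP bars.

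Trp53 (chr11:69580359-69591873, plus strand), which encodes p53, a transcription factor regulated mainly at the protein level, was slightly higher in JunB cKO in all tables. The levels were 26.4 FPKM in wild type versus 29.1 in JunB cKO in unperturbed samples, where the interval of -0.08 to 0.36 took in 0. After hair plucking they were 10.3 and 12.7 FPKM, a log2 ratio of 0.29 (interval 0.04 to 0.54), and in wounds 14.2 and 20.2 FPKM, a log2 ratio of 0.50 (interval 0.38 to 0.63).

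Sfn (chr4:133600556-133602168, minus strand), a 14-3-3 protein of stratified epithelia that holds mitotic kinases in the cytoplasm, stood lower in JunB cKO throughout and was the most abundant member in every group but wild type wounds, where Ccnd2 was higher. It was listed at 473 FPKM in wild type versus 275 in JunB cKO in unperturbed samples, a log2 ratio of -0.78 (interval -0.85 to -0.71). After hair plucking the levels were 145 and 124 FPKM, a log2 ratio of -0.23 (interval -0.31 to -0.15), and in wounds 131 and 95.4 FPKM, a log2 ratio of -0.46 (interval -0.51 to -0.41). As much or more lowering was seen in 4.56%, 37.2% and 12.9% of loci with at least 10 FPKM in unperturbed, plucked and wounded samples, respectively. Sfn has 1 annotated transcript of 1613 bp. Basal keratinocyte markers summed to 5333 FPKM in wild type versus 5253 in JunB cKO in unperturbed samples, and all 5 suprabasal markers were higher in JunB cKO (9835 against 13220 FPKM), opposite to Sfn, with none at 0. All 5 sebaceous gland markers were lower there (518 against 281 FPKM), 2 of them at least 2-fold, and the part of these markers in the Sfn values was not tested.

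**Figure D4:**
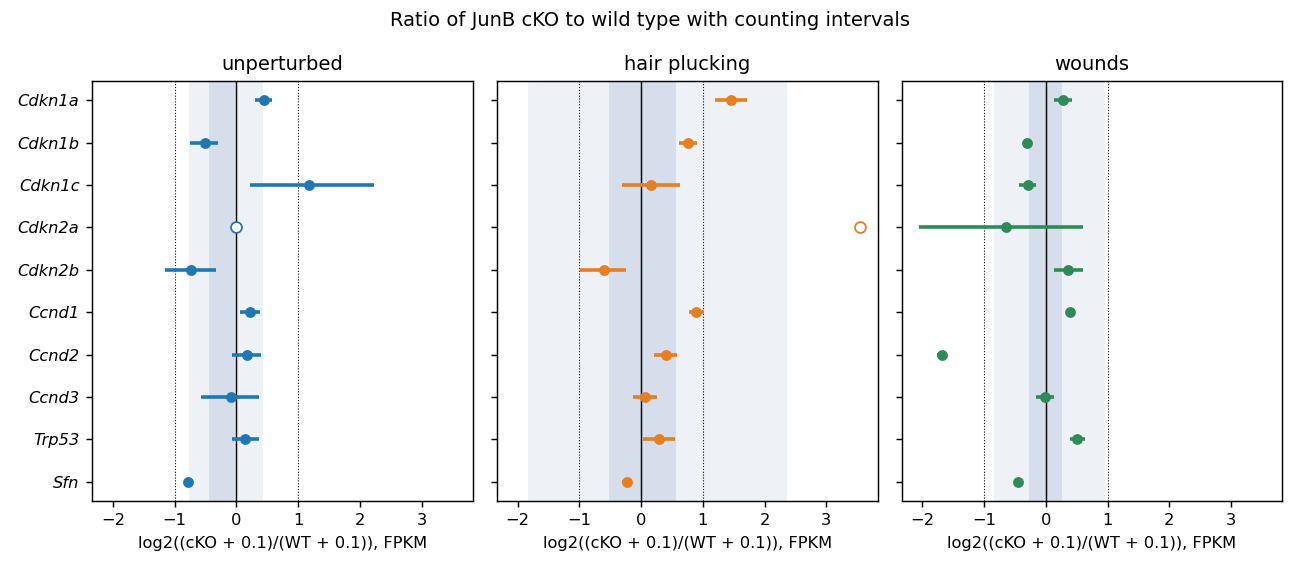
Log2 ratio of JunB cKO to wild type for each gene, log2((cKO + 0.1)/(WT + 0.1)) of the FPKM values, in 3 panels; filled points have 95% counting intervals as bars, which the point hides where they are narrow, and open points have a genotype listed at 0. Dark and pale bands hold the middle 50% and 90% of loci with at least 10 FPKM and dotted lines mark 2-fold, and the point farthest left is Ccnd2 in wounds at -1.68.

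Counted at 2-fold among members with at least 1 FPKM in either genotype, 1 of 9 was higher in unperturbed JunB cKO samples (Cdkn1c), where 22.1% of all loci were higher, and 0 were lower, where 2.37% were. After hair plucking 2 of 10 were higher (Cdkn1a and Cdkn2a) beside 21.3% of all loci, and 0 were lower beside 18.8%. In wounds 0 of 9 were higher beside 9.03% of loci, and 1 was lower (Ccnd2) beside 7.57%. With at least 10 FPKM, the unperturbed counts were 0 of 8 in either direction (1.69% of loci higher, 2.32% lower). After hair plucking 1 of 7 was higher, Cdkn1a (13.9% of loci), and 0 were lower (13.1%), and in wounds 0 of 8 were higher (4.47%) and 1 was lower (3.57%). With 1 or 2 members called in a table, the counts give no result about the set beyond the shares of all loci. The median log2 ratio of the 10 members was 0.07, 0.34 and -0.16 in unperturbed, plucked and wounded samples. The unperturbed median counts Cdkn2a, at 0 in both genotypes, as a ratio of 0, and it was 0.14 over the other 9 members. These medians stand beside -0.17, 0.00 and 0.01 for loci with at least 1 FPKM in both genotypes, and -0.24, 0.01 and -0.02 for loci with at least 10 FPKM in the higher genotype, neither of which is the same set of levels as the members'.

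Direction was shared by all tables for 4 of the 10 members. The share of all loci with a shared direction was not computed, so this count gives no result about the set. Ccnd1, Cdkn1a and Trp53 were higher and Sfn was lower in JunB cKO throughout, also after centring on the median of all loci. For Ccnd1 and Cdkn1a every interval lay above 0, and for Sfn every interval lay below 0. Cell type markers also differed after hair plucking. All 5 hair follicle markers were at least 2-fold higher in JunB cKO (62.8 against 607 FPKM, Krt35 at 0 in wild type), 3 of 4 melanocyte markers were at least 2-fold higher (20.8 against 44.8 FPKM, Mlana at 0 in wild type), 3 of 6 fibroblast markers were at least 2-fold lower (5109 against 1856 FPKM), as were all 4 muscle markers (119 against 13.7 FPKM, Myl1 at 0 in JunB cKO) and 4 of 5 leukocyte markers (207 against 73.5 FPKM). All 5 sebaceous gland markers were lower in JunB cKO (1366 against 706 FPKM), with Fabp5 (461 against 75.9 FPKM) and Elovl3 (68.0 against 28.0 FPKM) at least 2-fold lower. All 5 suprabasal markers were higher (12315 against 16065 FPKM). Of 5 basal keratinocyte markers 3 were higher, Itgb4 at least 2-fold (27.8 against 58.7 FPKM), and 2 lower. Their sum was 4697 against 4146 FPKM, with Krt14 at 2446 against 1709. Of 4 endothelial markers 1 was higher and 3 were lower (sums of 70.9 against 51.0 FPKM). Of 4 adipocyte markers 3 were lower and Adipoq was higher (8.76 against 17.4 FPKM), with sums of 63.3 against 38.0. The part of these markers in the values of Cdkn1a, Cdkn1b and Ccnd1 after hair plucking was not tested.

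The genes of the kinases that D cyclins activate, Cdk4 and Cdk6, stayed within 2-fold in all tables. Cdk4 was 71.9 FPKM in wild type versus 67.5 in JunB cKO in unperturbed samples, 69.8 and 105 after hair plucking and 113 and 84.9 in wounds. Cdk6 was 21.3 and 21.4, 22.9 and 32.4, and 13.2 and 12.2 FPKM, respectively. Of 11 kinases and later cyclins with at least 1 FPKM after hair plucking, 2 were at least 2-fold higher and 1 was lower. Of all loci 21.3% were higher and 18.8% lower. The higher genes were the G1/S cyclin gene Ccne2 (15.8 against 83.7 FPKM) and Ccnh (30.4 against 120), which encodes the partner of CDK7. The lower gene was the mitotic kinase gene Cdk1 (26.0 against 9.31). In wounds 1 of 12 was lower, beside 7.57% of all loci. It was Ccne2, at 57.4 FPKM in wild type versus 24.1 in JunB cKO. None of the 12 passed 2-fold in unperturbed samples, where Ccna2 had the highest log2 ratio (0.52) and Mnat1 the lowest (-0.87) of those above 5 FPKM, and Ccne1, at 1.15 and 2.29 FPKM, lay higher (0.94).

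Of 14 E2F-driven S phase genes, which lie downstream of the retinoblastoma protein, 12 were higher in plucked JunB cKO skin, where 51.3% of loci with at least 1 FPKM were higher. In this list 3 passed 2-fold, beside 21.3% of all loci, the ribonucleotide reductase gene Rrm1 (12 against 47.3 FPKM), the replicative helicase gene Mcm2 (5.19 against 15.1) and the thymidylate synthase gene Tyms (9.45 against 25.5), and the list had a median log2 ratio of 0.79. In unperturbed samples 14 of 15 were higher, beside 47.2% of loci with at least 1 FPKM, with a median of 0.20. The 1 gene past 2-fold, beside 22.1% of all loci, was the replication licensing gene Cdc6, at 0.628 and 1.87 FPKM. Above 5 FPKM the extremes were Mcm5 (0.44) and Pcna (-0.23). In wounds 7 were higher and 7 lower, with 0 past the log2 limit of 1, extremes above 5 FPKM of 0.73 for Tyms and -0.63 for Top2a, and Cdc6 at 0.99 (2.31 and 4.70 FPKM). Of 13 retinoblastoma and E2F genes after hair plucking, 4 were at least 2-fold higher (21.3% of all loci) and E2f5 was lower (18.8%). The higher genes were E2f7, E2f2, E2f6 and the p107 gene Rbl1 (10.2 against 22.2 FPKM). The same list counted 3 higher in unperturbed samples, beside 22.1% of all loci, and 0 in wounds, beside 9.03%. These 3 were E2f1, E2f7 and E2f8, all below 5 FPKM. Receptor genes had a median of 0.543 FPKM in the unperturbed JunB cKO library. The part of that level in these ratios was not tested. The lowest and highest members of the list above 5 FPKM were E2f5 (-0.42) and Tfdp1 (0.28) in unperturbed samples and E2f2 (-0.72) and Tfdp2 (0.45) in wounds.

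Of 28 p53 target genes with at least 1 FPKM after hair plucking, 8 were at least 2-fold higher in JunB cKO, beside 21.3% of all loci, and 1 was lower, Fdxr, beside 18.8%. Tigar was the 1 higher gene below 5 FPKM. The other higher genes above 5 FPKM were Mdm2, the ubiquitin ligase gene that limits p53 (21.1 against 49.4 FPKM), the cell death genes Apaf1 (7.01 against 17.7) and Bbc3 (listed at 0 against 11.8), the repair genes Xpc (8.37 against 27.3) and Polk (4.81 against 16.6), the nuclease gene Aen (4.52 against 17.2) and the mTOR inhibitor gene Ddit4 (7.93 against 22.6). The median log2 ratio of the list was nevertheless 0.26, with 19 higher and 9 lower. In unperturbed samples 0 of 28 passed 2-fold and the extremes above 5 FPKM were Ccng1 (0.63) and Btg2 (-0.62), with Eda2r (2.63 and 4.83 FPKM) at 0.85. In wounds 0 of 29 were higher and 1 was lower, Pidd1 at a level below 5 FPKM, with extremes above 5 FPKM of 0.80 for Rrm2b and -0.84 for Plk3. Mdm2 was 19.4 and 13.4 FPKM in unperturbed samples and 37.3 and 33.0 in wounds.

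Among 12 p53 family members and regulators after hair plucking, 2 were at least 2-fold higher (21.3% of all loci) and 1 lower (18.8%). Higher were the checkpoint kinase gene Chek1 (6.35 against 33.7 FPKM) and Mdm2, and Atm was lower (24.2 against 11.5). In unperturbed samples 10 of 12 were lower, or 8 relative to the median of all loci. Of loci with at least 1 FPKM, the minimum of the list, 52.8% were lower. The share was 75.4% of loci with at least 5 FPKM, a level that 9 of the 12 reached. Chek1 (0.870 and 2.07 FPKM) was at least 2-fold higher, beside 22.1% of all loci. Mdm4 at -0.83 and Trp73 at -0.03 were the extremes above 5 FPKM. In wounds 9 of 12 were lower, where 48.5% of loci with at least 1 FPKM were lower. Ratios above 5 FPKM ran from -0.65 for Chek2 to 0.93 for Trp53bp2. Trp73 was at least 2-fold higher (0.747 against 2.50 FPKM), beside 9.03% of all loci. Of 12 genes that turn over inhibitors and D cyclins, 2 were at least 2-fold higher after hair plucking, beside 21.3% of all loci. They were Cks1b, the cofactor for degradation of p27 (6.51 against 19.0 FPKM), and the F-box gene Fbxo4 (4.85 against 17.3). The extremes above 5 FPKM were Cks1b (0.38) and Ambra1 (-0.45) in unperturbed samples and Cul4a (0.65) and Skp1a (-0.39) in wounds. Below that level Skp2, the F-box gene for p27, stood at 0.71 and -0.48, respectively, and 0 passed 2-fold in either.

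Of 11 regulators of the INK4 locus with at least 1 FPKM after hair plucking, 1 was at least 2-fold higher and 2 were lower. These counts stand beside 21.3% and 18.8% of all loci. The repressor gene Tbx3 was higher (0.455 against 6.51 FPKM). The Polycomb gene Rnf2 (54.8 against 23.6) and the activator gene Ets1 (18.6 against 7.31) were lower. In unperturbed samples 10 of 12 were lower, or 9 relative to the median of all loci. Of loci with at least 1 FPKM, the minimum of the list, 52.8% were lower there. Of those with at least 5 FPKM, a level that 9 of the 12 reached, 75.4% were lower. Dmtf1 was lowered the most (-0.67) and Cbx8 the least (-0.16) among those above 5 FPKM. Tbx2 and Tbx3, below 2 FPKM, were at least 2-fold higher, beside 22.1% of all loci. In wounds Dmtf1 was the lowest (-0.75) and Ets1 the highest (0.50) above 5 FPKM, and Tbx3, at 0.573 and 1.23 FPKM, had a log2 ratio of 0.98. Of the other INK4 and CDK-binding genes, Cdkn2d, which encodes p19INK4d, was 1.49 FPKM in wild type versus 8.49 in JunB cKO after hair plucking and 11.4 and 6.00 in unperturbed samples, while Cdkn3 was 1.97 and 6.04 in wounds and listed at 0 against 2.99 after hair plucking. Cdkn2aip was the other extreme in unperturbed samples (-0.21). In the 14-3-3 family only Ywhah passed 2-fold, at 39.5 and 88.1 FPKM after hair plucking. Its unperturbed extremes were 0.20 for Ywhah and -0.13 for Ywhag, and those in wounds 0.19 for Ywhag and -0.78 for Ywhae.

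Of 16 regulators of Ccnd1 and Cdkn1a transcription, 15 were lower in unperturbed JunB cKO samples, and the deleted gene Junb was the 1 past 2-fold. Their median log2 ratio was -0.33, beside -0.24 for all loci with at least 10 FPKM, of which 78.7% were lower. Relative to -0.17, the median of loci with at least 1 FPKM in both genotypes, 14 of 16 were lower. After hair plucking the Miz-1 gene Zbtb17 (9.37 against 25 FPKM) and Fos (3.38 against 8.97) were at least 2-fold higher, and Smad3 (17.5 against 6.40), Jund (30.3 against 13), Junb and Fosb (2.54 against 0.397) were lower. In wounds Junb and, below 5 FPKM, Fosb were at least 2-fold lower. Over all lists, without members, 7 of 130 genes (5.38%) were at least 2-fold higher and 1 (0.769%) lower in unperturbed samples, beside 22.1% and 2.37% of all loci. After hair plucking 26 of 125 (20.8%) were higher and 10 (8%) lower, beside 21.3% and 18.8%. In wounds 2 of 128 (1.56%) were higher and 4 (3.13%) lower, beside 9.03% and 7.57%. At a minimum of 1 FPKM, the share higher after hair plucking is thus near that of all loci. The other shares are below those of all loci. With at least 10 FPKM, 19 of 95 were higher and 7 lower after hair plucking, beside 13.9% and 13.1% of loci. In unperturbed samples 0 of 75 were higher and 1 lower, beside 1.69% and 2.32%. In wounds 0 of 88 were higher and 2 lower, beside 4.47% and 3.57%. Junb, the deleted gene, is counted as lower in each of these totals. It is the 1 lower gene in unperturbed samples at either minimum.

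**Figure D5:**
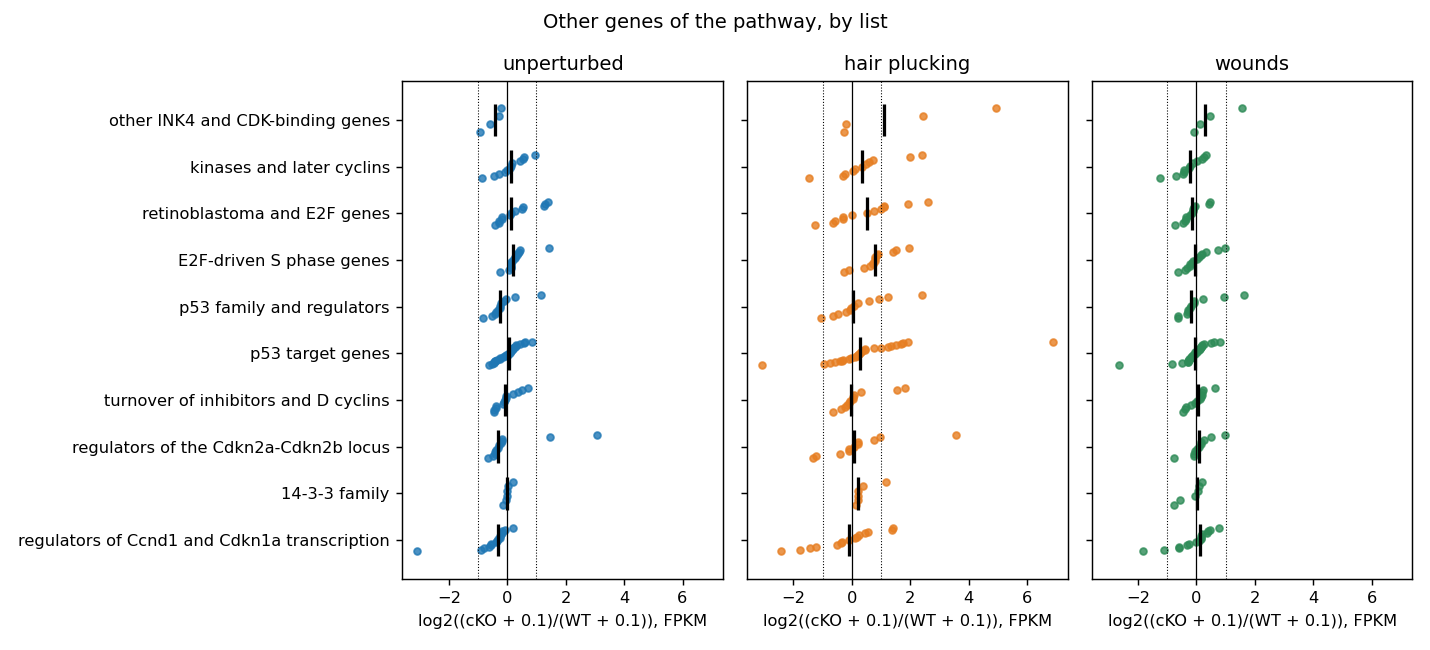
Log2 ratio of JunB cKO to wild type, on the FPKM + 0.1 scale, for genes of 10 pathway lists with at least 1 FPKM in either genotype; each point is 1 gene, black bars are list medians and dotted lines mark 2-fold. Points spread widest after hair plucking, where the E2F-driven S phase genes have a median of 0.79, and gather near 0 in the other panels.

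The genes whose 3 log2 ratios lay nearest to those of each member were sought among 4659 symbols with at least 10 FPKM in all tables. For Cdkn1a they were Dap, Cks1b and Sfrp1, at Euclidean distances of 0.10, 0.13 and 0.16. Mpp7, Srpk2 and Zdhhc21 lay nearest to Cdkn1b (0.07 to 0.12), and Cadm1, Bola3 and Thap7 to Ccnd1 (0.10 to 0.15). Ccnd3, level in every table, had Mrps30, Lad1 and Carhsp1 within 0.04. Grina, Bmp7 and Steap4 were nearest to Trp53 (0.10 to 0.15), and Herc4, Rbm5 and Tnik to Sfn (0.07 to 0.16). Ccnd2 had the most distant neighbours, Wdtc1, the involucrin gene Ivl and Lrrc42, at 0.49, 0.61 and 0.65.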

How the data were processed

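Total RNA of mouse skin or keratinocytes was sequenced by the authors as stranded single-end reads of 75 bp after rRNA depletion, with RNA of 3 samples pooled per group. According to the study's methods, the authors trimmed the reads, mapped them with TopHat 2.1.0 or HISAT2 (GRCm38), assembled loci with Cufflinks 2.2.1 and compared genotypes with Cuffdiff. The deposited tables hold 1 FPKM value per locus and genotype, calculated by the authors. The unperturbed table has 26457 loci, against 47990 after hair plucking and 46726 in wounds. Whether the same annotation served all of the tables is not given in the sources used here. The deposited tables differ in that respect when they are compared. They also hold the authors' fold changes, test statistics, p-values and q-values, which were not used.

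Log2 ratios of JunB cKO to wild type were computed with a pseudocount of 0.1 FPKM, and a 2-fold limit was applied to loci with at least 1 FPKM in the higher genotype. With this pseudocount a ratio of low FPKM values understates the fold. Receptor genes had an unperturbed median of 0.543 FPKM in JunB cKO versus 0 in wild type. Low ratios in that pair may instead be overstated, as for Cdkn1c (1.17, or 0.73 with this median subtracted). The value of 1 read was recovered from genes with 1 exon and 1 transcript of at least 700 bp: in the unperturbed and hair plucking libraries, 98.8 to 100% of their values below 50 reads were whole within 0.02 reads. Reads of members were approximated with the shortest coding transcript in GENCODE M21, and exact (Clopper-Pearson) 95% intervals of the ratio were derived, with 3 reads as the limit for a value of 0. Members and gene lists were chosen with earlier results of these data known. Named beside the members are list genes with at least 5 FPKM that passed 2-fold, otherwise the highest and lowest of a list, always Mdm2, Cdk4 and Cdk6, and for members with at least 10 FPKM in all tables the 3 nearest genes. Oraov1, Gm43126, LOC100861633, Gm12606 and list genes below 5 FPKM were named after their values were seen. Cell type markers were set beside the members without a test. Alternatives were pseudocounts of 0.01 and 1, centring, a 1.5-fold limit, other minimum levels, status OK loci, summed loci and subtraction of the receptor gene median. The calculations were tested on simulated data and run in Python 3.11.15 with numpy 2.4.6, pandas 2.3.3, scipy and matplotlib.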

Additional observations from a re-analysis of the deposited data

Results flagged for a closer look

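4 members differed between genotypes in opposite directions in 2 tables, each ratio beyond its counting interval. The differences themselves were not tested, since every value is 1 pool or 1 merged value. The intervals cover counting error only, and the share of all loci that meet the same rule was not computed. The count of 4 therefore gives no result about the set. The log2 ratio of Cdkn1b after hair plucking exceeded that in unperturbed samples by 1.27 and that in wounds by 1.05. For Cdkn2b the ratio in wounds exceeded that in unperturbed samples by 1.1 and that after hair plucking by 0.97. For Ccnd2 the ratio after hair plucking exceeded that in wounds by 2.08. Gm43126, in the same locus, was listed at 34 FPKM in wild type versus 0 in JunB cKO after hair plucking, opposite to Ccnd2. The direction of Ccnd2 there thus holds for its own symbol only. For Cdkn1c the unperturbed ratio exceeded that in wounds by 1.47, with a wild type level of 0.815 FPKM in the unperturbed library.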

How the results depend on the processing

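The unperturbed median log2 ratio of the members, 0.07, became 0.24 with centring and ran from 0.06 to 0.14 under the other alternatives, of which the median over 9 members with a value (0.14) was chosen after the data were seen. The medians after hair plucking and in wounds ran from 0.33 to 0.34 and from -0.17 to -0.13. The D cyclin shares had 1 alternative, summed loci, which cannot change them because each D cyclin has 1 locus. The 2-fold count in wounds stayed at 1, Ccnd2, also at 1.5-fold. In unperturbed samples the count of 1 became 0 with a pseudocount of 1, and 3 (1 higher, 2 lower) at 1.5-fold. Chosen after the data were seen, a minimum of 10 FPKM or subtraction of the receptor gene median also gave 0. After hair plucking the count of 2 became 5 (4 higher, 1 lower) at 1.5-fold and 1 with a minimum of 10 FPKM. Of the pathway genes, the 8 past 2-fold in unperturbed samples became 2 with a pseudocount of 1, 20 at 1.5-fold and 1 with a minimum of 10 FPKM. The 1 left at that minimum is the deleted gene Junb. The 36 after hair plucking became 59 at 1.5-fold, and the 6 in wounds became 24 at 1.5-fold and 2 with a minimum of 10 FPKM. The share of all loci higher in unperturbed JunB cKO samples was 22.1%, 37.7% with no minimum and 1.69% with a minimum of 10 FPKM, and the share lower was 2.37%, 1.42% with a pseudocount of 1 and 8.89% at 1.5-fold. After hair plucking 21.3% and 18.8% became 10.1% and 8.42% with no minimum, and 21.3% became 13.9% with a minimum of 10 FPKM. In wounds 9.03% and 7.57% became 17.0% and 13.7% at 1.5-fold and 4.47% and 3.57% with a minimum of 10 FPKM, and 9.03% became 5.68% with a pseudocount of 1. Centring turned the unperturbed Ccnd3 ratio from -0.09 to 0.09. The Cdkn2a ratio after hair plucking ran from 1.05 to 6.76 with the pseudocount. The causes were not tested.

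No paired analysis was possible because the wound table merges the numbered libraries and the other tables hold 1 library per genotype. For the same reason no fit without 1 replicate was run. The shallow unperturbed JunB cKO library, with its receptor gene median of 0.543 FPKM, limits values near 1 FPKM.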
